A study of Mus musculus with 6 samples.

Results

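The comparison described here set the RNA of Tsc2-/- mouse embryonic fibroblasts (MEFs) against that of Tsc2+/+ MEFs, gene by gene. Transcript values were summed per gene symbol, which gave 30281 genes, and the 9125 genes with at least 10 TPM and 100 estimated counts in at least 1 of the MEF libraries are called described genes. TPM is a level corrected for transcript length and library size. Of the described genes, 7347 reached both limits in both libraries, 348 only in the Tsc2+/+ library and 1430 only in the Tsc2-/- library.

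The series holds 6 mouse RNA-seq libraries, with 1 library per condition. Both MEF lines were untreated and were labelled p53-/- as well, with the genotypes Tsc2-/- p53-/- and Tsc2+/+ p53-/-, so p53 loss was shared by both sides. The other 4 libraries came from MKOC and TJ cells, mouse kidney epithelial lines given as Tsc2-null (TJ being tumor-derived), of which only the untreated library of each line is quoted below. Each MEF genotype was 1 cell line and 1 library, so a difference belongs to those libraries, and genotype, line and library cannot be told apart. No test was made and no p-value is given.

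TSC2 is the part of the tuberous sclerosis complex that switches off the small GTPase Rheb, and cells that lack it keep the growth kinase mTORC1 active. Fibroblasts build the collagen matrix of connective tissue and retain, in culture, a memory of the part of the embryo they came from in the transcription factors they express. They also answer type I interferon through the JAK kinases and transcription factors such as Stat2 and Irf9, which switch on a large set of antiviral genes.

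Depth was 37505004 estimated counts for Tsc2+/+ and 24010446 for Tsc2-/- MEFs. TPM in the Tsc2-/- library ran higher by a median factor of 1.31 across the 7377 genes that reached 10 TPM on both sides. All Tsc2-/- TPM values were divided by that factor and are called scaled TPM below. Log2 fold changes are those of scaled TPM with 1 added, Tsc2-/- over Tsc2+/+, and understate the difference for genes of low level. Ratios are given without the added 1 and carry 95% Wilson intervals that cover counting error only. The median log2 fold change of all described genes was 0.08, with quartiles at -0.35 and 0.56.

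The gene that defines the comparison was lower but still read in the library labelled Tsc2-/-. Tsc2 had 22.6 TPM in the Tsc2+/+ library and 7.98 scaled TPM in the library labelled Tsc2-/-, a ratio of 2.83 (2.63 to 3.03). In the untreated kidney lines, given as Tsc2-null, it had 39.3 scaled TPM in MKOC and 35.6 in TJ cells, above the Tsc2+/+ MEFs. Trp53, which encodes p53, had 26.3 TPM in the Tsc2+/+ library and 21.8 scaled TPM in the Tsc2-/- library, although both lines were labelled p53-/-. The sums do not show which exons the reads came from, so RNA from a disrupted allele would be counted in them. The labelled cell type was checked against its markers. The fibroblast genes Col1a1, Col1a2, Col3a1, Fn1 and Vim were above 273 TPM in the Tsc2+/+ library and above 361 scaled TPM in the Tsc2-/- library, whereas Thy1, a surface marker of many fibroblasts, was at 0 counts in the Tsc2+/+ library and had 5.61 scaled TPM in the Tsc2-/- library. The 14 fibroblast markers summed to 8197 TPM in the Tsc2+/+ library and 3415 scaled TPM in the Tsc2-/- library, and of the 10 that reached both limits in both libraries 3 were at least 4-fold lower and 0 higher. Vim, with 3522 TPM and 853 scaled TPM, made up most of the fall in that sum and was 1 of the 3, although it was under 4-fold on a count scale and is not named among the lower genes for that reason. Marker lists of other cell types differed in their sums. The 15 mesothelial markers summed to 8.20 TPM and 590 scaled TPM, and the 21 epithelial markers to 2.97 TPM and 220 scaled TPM. The 14 muscle markers summed to 256 TPM and 460 scaled TPM, and the 15 neural and neural crest markers to 184 TPM and 154 scaled TPM. None of 12 endothelial or 13 macrophage markers was a described gene in either library. The part of cell identity in the differences that follow was not tested.

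At a fold of 4, 166 described genes (1.82%) were lower and 451 (4.94%) were higher in Tsc2-/- MEFs, and 8508 lay within 4-fold. Of the lower genes, 72 were past 8-fold, 33 past 16-fold and 20 past 32-fold, and 44 had over 100 TPM in the Tsc2+/+ library. At the limit, Cd44 (-2.01 on the log2 scale) was the last gene counted as lower. At most 3 estimated counts were found for 118 described genes (1.29%) in the Tsc2+/+ library and for 15 described genes (0.164%) in the Tsc2-/- library. These 118 and 15 genes are called near 0, and each of the 118 was also past 4-fold. The scatter of the MEF libraries shows both sets at the axes. A gene that reached the limits in 1 library only had been chosen through the library where it was high, which favours a difference in that direction. Among the 7347 genes that reached them in both, 55 (0.749%) were lower and 33 (0.449%) higher, and lists are therefore also counted on these genes, called genes passing in both.

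**Figure D1:**
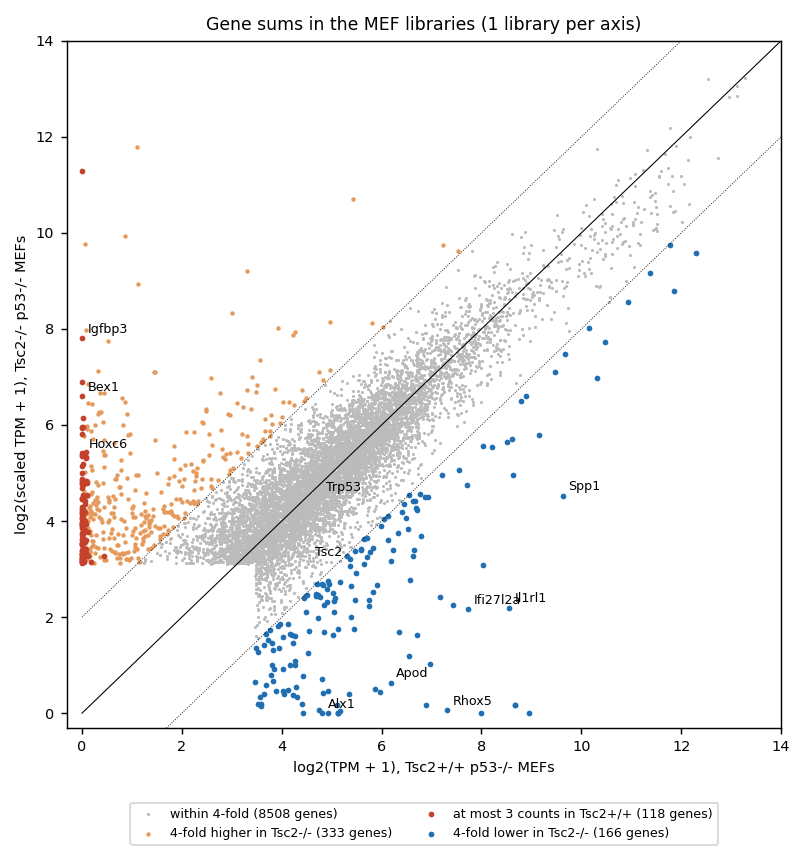
Level of each of the 9125 described genes in the Tsc2+/+ library (horizontal axis, log2 of TPM with 1 added) and the Tsc2-/- library (vertical axis, log2 of scaled TPM with 1 added), 1 point per gene. The solid line marks equal levels and the dotted lines a 4-fold difference of the values with 1 added; the 166 lower genes lie below the lower dotted line and the 118 genes with at most 3 counts in the Tsc2+/+ library stand along the left edge.

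A large group among the lower genes was the interferon response. Of 81 genes in 3 lists of interferon-induced genes, 64 were described, and 35 of these (54.7%) were at least 4-fold lower in Tsc2-/- MEFs, beside 1.82% of all described genes, while 2 were at least 4-fold higher. In all, 62 of the 64 had a log2 fold change below 0 and 52 were at least 2-fold lower. The median log2 fold change over the 64 was -2.17, beside 0.08 over all described genes. Of the 64 genes, 43 passed in both libraries, and 19 of these (44.2%) were lower and 1 higher, with a median of -1.81. In RNA from a whole culture, fewer responding cells and less RNA per cell cannot be told apart. The 25 genes with the lowest log2 fold change were named after some genes had been left out. Left out were predicted, pseudogene and ribosomal protein symbols, genes resting on short transcripts and genes under 4-fold on a count scale. Of the 25 named lowest genes, 6 belonged to the interferon lists (Ifi27l2a, Aim2, Phf11d, Cxcl10, Tgtp2 and Ifi203).

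Among the interferon-stimulated genes proper, 43 of 48 were described, 19 were lower, 2 were higher and the median was -1.87. Of the 32 that passed in both libraries, 12 were lower and 1 higher. Isg15, a ubiquitin-like protein attached to other proteins in infected cells, had 713 TPM (700 to 725) in the Tsc2+/+ library and 136 scaled TPM in the Tsc2-/- library, a ratio of 5.24 (4.98 to 5.52). It was abundant in Tsc2+/+ MEFs and lower, but far from 0, in Tsc2-/- MEFs. Cxcl10, a chemokine that draws T cells, had 259 TPM and 7.48 scaled TPM, a ratio of 34.6 (29.3 to 41.0). Ifi27l2a had 212 TPM and 3.50 scaled TPM, a ratio of 60.8 (39.2 to 94.1), and was the lowest of the list. Ifi44 had 398 TPM and 30.2 scaled TPM. Irf7, a transcription factor of the list, was lower, with 121 TPM and 21.7 scaled TPM, a ratio of 5.57 (5.15 to 6.03). The transcription factors Irf9 and Stat2 were both within 4-fold. Irf9 had 110 TPM and 35.4 scaled TPM, and Stat2 had 63.9 TPM and 29.1 scaled TPM. Bst2, or tetherin, which holds budding viruses on the cell surface, was the most abundant of the list in both libraries (831 TPM and 471 scaled TPM) and did not pass 4-fold.

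The 2 genes of the list that were higher in Tsc2-/- MEFs were Ifih1, which encodes the viral RNA sensor MDA5, and Ccl5, a chemokine. Ifih1 had 0.364 TPM and 9.91 scaled TPM, a ratio of Tsc2-/- to Tsc2+/+ of 27.2 (20.3 to 36.5). Ccl5 had 20.3 TPM and 105 scaled TPM, a ratio of 5.19 (4.46 to 6.04). Ifih1 was thus almost unread in the Tsc2+/+ library.

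The interferon-inducible GTPases, which attack the vacuoles of intracellular parasites, had 11 of 13 members described, 7 lower, 4 within 4-fold, 0 higher and a median of -2.19. Of the 7 passing in both libraries, 4 were lower. Gbp3 had 185 TPM and 32.3 scaled TPM, and Gbp2 had 103 TPM and 17.9 scaled TPM. The lowest of the family was Tgtp2, with 26.9 TPM and 0.636 scaled TPM, next to its close copy Tgtp1, with 17.0 TPM and 1.01 scaled TPM. The split of reads between such near-identical copies is uncertain, but both were lower. Of the PYHIN, Schlafen and Phf11 genes, 10 of 20 were described, 9 were lower, 0 were higher and the median was -3.34. Only 4 passed in both libraries, of which 3 were lower, and the other 6 passed through the Tsc2+/+ library alone. Among the 10 that were not described, Slfn2 had 1.49 TPM and 5.32 scaled TPM (picked after its values were seen). Aim2, which senses DNA in the cytosol and starts the inflammasome, had 57.3 TPM and 0.415 scaled TPM, a ratio of 138 (82.2 to 232). Phf11d had 171 TPM and 3.80 scaled TPM, a ratio of 45.1 (36.5 to 55.6). Ifi203, a nuclear PYHIN protein, had 94.1 TPM and 5.79 scaled TPM. Slfn9, with 33.0 TPM and 19.7 scaled TPM, was the described member within 4-fold.

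**Figure D2:**
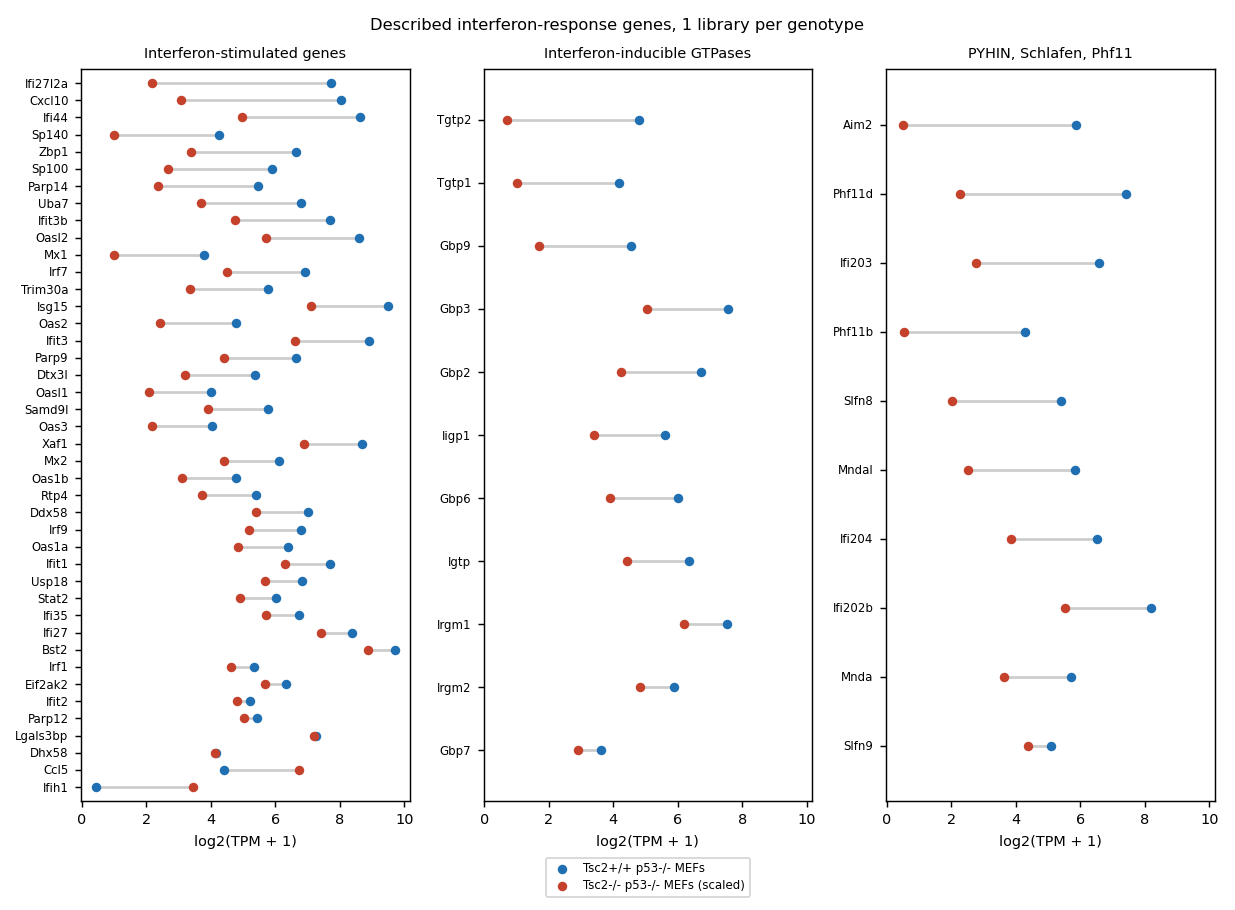
Levels of 63 described genes of the interferon lists (horizontal axis, log2 of TPM with 1 added, 1 row per gene ordered by log2 fold change), with the Tsc2+/+ library in blue and the scaled Tsc2-/- library in red. The red point lies to the left of the blue point for 61 of the 63 genes, the exceptions being Ccl5 and Ifih1.

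Of 16 ligands, receptors, JAK kinases and related sensors and adaptors, a list that does not hold Ifih1, 13 were described, 0 were lower, 0 were higher and the median was 0.13. The type I receptor chain Ifnar1 had 33.9 TPM and 29.9 scaled TPM, and Ifnar2 had 54.4 TPM and 53.6 scaled TPM. Jak1 had 50.3 TPM and 75.9 scaled TPM. Ifnb1, the interferon that fibroblasts make, had 0.286 TPM from 5 counts and 0.0866 scaled TPM from 1 count, too few counts to show a difference at this depth. MHC class I genes, which present peptides to T cells and respond to interferon, had 11 of 14 members described, with 2 lower, 0 higher and a median of -0.71. Of the 9 that passed in both libraries, 0 were past 4-fold, with a median of -0.71. The 2 lower genes passed through the Tsc2+/+ library alone. They were the peptide transporter subunits Tap1 (32.2 TPM and 3.28 scaled TPM) and Tap2 (20.7 TPM and 4.27 scaled TPM), whereas B2m had 1292 TPM and 880 scaled TPM, and H2-K1 went the other way with 64.8 TPM and 93.7 scaled TPM.

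The kidney lines put these levels on a wider scale. Scaled in the same way to the Tsc2+/+ MEF library, the median level of the 64 interferon genes was 66.1 TPM in Tsc2+/+ MEFs, 17.2 in Tsc2-/- MEFs, 3.65 in the MKOC line and 6.79 in the TJ line. Over all described genes the medians were 26.2, 27.9, 25.8 and 25.9. The Tsc2+/+ MEF library was the highest of the 4 untreated libraries for 60 of the 64 genes (93.8%, beside 31.1% of all described genes), and the Tsc2-/- MEF library was above both kidney lines for 47 of them (73.4%, beside 51.5%). The 64 genes were chosen by their level in the MEF libraries, 20 of them through the Tsc2+/+ library alone, whereas the kidney lines faced no such limit. Of the 43 that passed in both MEF libraries, the Tsc2+/+ library was the highest for 41 (95.3%, beside 34.3% of all genes passing in both). The Tsc2-/- library was above both kidney lines for 37 of the 43 (86.0%, beside 49.8%). Aim2, which passed through the Tsc2+/+ library alone, was among the genes of the 64 where it was not. It had 29.3 in MKOC and 38.03 in TJ cells against 0.415 in Tsc2-/- MEFs, and was highest in Tsc2+/+ MEFs at 57.3. The kidney lines are another cell type, and the share of cell type in this order was not tested.

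Promoters of the lower interferon genes are shown because interferon-stimulated response elements, the sites through which interferon acts on promoters, contain a spaced repeat that can be searched for. The motif was GAAANNGAAA on either strand (TTTCNNTTTC when read on the other), sought in the 250 bases before each RefSeq start site (GRCm38.p6). This search was added after the values had been seen. Of 6963 described genes with a promoter in the RefSeq table, 3.27% held the motif, against 14.8% of 108 lower genes and 3.92% of 306 higher genes. The 85 lower genes outside the interferon lists held it in 3.53%, near the share of all described genes. Of 45 genes of the interferon lists with a promoter, 23 held it (51.1%), including 8 of 8 interferon-inducible GTPases. The share was 56.5% for the 23 genes of the lists that were lower and 45.5% for the 22 that were not. Over all 32851 promoter windows it was 2.98%. The stretches below run 5′ to 3′ on the strand of the gene, with the match nearest the start site in capitals.
Isg15 (chr4:156200850-156200909, minus strand): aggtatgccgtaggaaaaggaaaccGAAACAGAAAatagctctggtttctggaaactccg
Ifit3 (chr19:34583382-34583441, plus strand): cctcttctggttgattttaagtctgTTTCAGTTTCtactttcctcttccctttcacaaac
Cxcl10 (chr5:92349068-92349127, minus strand): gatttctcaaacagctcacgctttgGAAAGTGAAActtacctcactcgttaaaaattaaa
Gbp2 (chr3:142620579-142620638, plus strand): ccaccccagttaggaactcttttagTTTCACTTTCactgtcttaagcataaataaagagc
Tgtp2 (chr11:49064248-49064307, minus strand): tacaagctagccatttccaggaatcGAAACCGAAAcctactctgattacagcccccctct
Ifi203 (chr1:173942493-173942552, minus strand): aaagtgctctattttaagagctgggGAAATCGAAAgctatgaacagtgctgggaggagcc
Slfn8 (chr11:83020824-83020883, minus strand): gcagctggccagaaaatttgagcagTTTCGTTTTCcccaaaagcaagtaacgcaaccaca
Phf11b (chr14:59341346-59341405, minus strand): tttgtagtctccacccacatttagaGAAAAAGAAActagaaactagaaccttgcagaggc
The matches began 66 bases upstream of the start in Isg15, 122 in Ifit3, 213 in Cxcl10, 59 in Gbp2, 70 in Tgtp2, 35 in Ifi203, 48 in Slfn8 and 50 in Phf11b. A match describes letters and does not show that a factor binds there.

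Transcription factors that mark position in the embryo differed between the lines. Of 38 factors of craniofacial and limb mesenchyme, 14 were described. Of these, 6 (42.9%) were lower and 1 (7.14%) was higher, beside 1.82% and 4.94% of all described genes. Of the 5 that passed in both libraries, 2 (40.0%, beside 0.749%) were lower and 0 higher. The other 4 lower genes passed through the Tsc2+/+ library alone and the higher gene through the Tsc2-/- library alone, so their direction followed from the limits. Alx1, a homeobox factor of the face, had 27.1 TPM from 1979 counts in the Tsc2+/+ library and 0 counts in the Tsc2-/- library, at least 426-fold lower against a floor of 3 counts. Its relative Alx4 had 11.02 TPM and 0.108 scaled TPM. Irx2 had 33.6 TPM and 0.130 scaled TPM from 1 count, a ratio of 258 (45.5 to 1463). These 3 genes were close to absent in Tsc2-/- MEFs, while other members kept a clear level. Prrx1, a factor of limb and facial mesenchyme, had 261 TPM and 46.2 scaled TPM. Shox2 had 25.4 TPM and 4.53 scaled TPM. Twist1, another factor of this mesenchyme, had 10.3 TPM and 12.3 scaled TPM. Zic1 was the member that was higher, with 0.00724 TPM and 17.3 scaled TPM.

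Some factors of trunk, heart and body cavity mesenchyme were higher. Of 27 trunk, heart and coelomic factors, 9 were described, 4 were higher, 5 were within 4-fold and 0 were lower. The 4 higher genes passed through the Tsc2-/- library alone, and the 3 that passed in both libraries were within 4-fold. Wt1, Gata6, Hand2 and Bnc1 were at or below 0.0668 TPM in the Tsc2+/+ library, against 62.3, 25.9, 8.11 and 21.01 scaled TPM. Of 39 Hox genes, which set position along the body axis, 12 were described and 10 were higher. All 12 passed through the Tsc2-/- library alone, since no Hox gene was above 7.45 TPM in the Tsc2+/+ library, so their direction followed from the limits. The gene at 7.45 TPM was Hoxa10, which had 36 counts there and 1.19 scaled TPM in the Tsc2-/- library and was not described. Hoxc6 had 0.0228 TPM from 1 count and 41.2 scaled TPM, a ratio of 1803 (318 to 10220). Hoxb9 had 0 counts and 30.9 scaled TPM, at least 750-fold higher. The clusters differed. Summed over 11 Hoxa genes the Tsc2+/+ library held 26.2 TPM and the Tsc2-/- library 57.3 scaled TPM. Over 10 Hoxb genes the sums were 1.49 TPM and 102 scaled TPM, and over 9 Hoxc genes 0.142 TPM and 77.2 scaled TPM. Over 9 Hoxd genes they were 0.0277 TPM and 15.3 scaled TPM. The Tsc2+/+ MEFs thus expressed Hoxa genes and next to none of the other clusters, and the Tsc2-/- MEFs expressed all 4. The plot of positional factors gives both levels for the genes drawn.

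**Figure D3:**
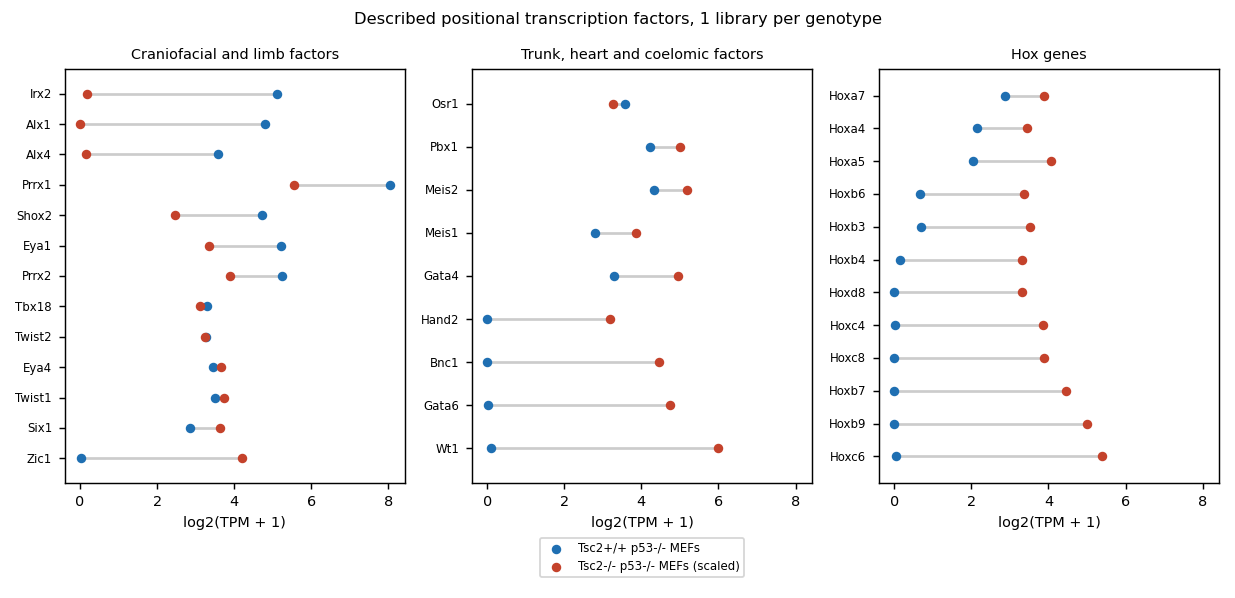
Levels of described positional transcription factors (horizontal axis, log2 of TPM with 1 added, 1 row per gene ordered by log2 fold change), with the Tsc2+/+ library in blue and the scaled Tsc2-/- library in red. Irx2, Alx1 and Alx4 have the red point near 0, and Wt1, Hoxb9 and Hoxc6 the blue point near 0.

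The 25 named lowest genes had between 17.7 and 794 TPM in the Tsc2+/+ library and at most 22.1 scaled TPM in the Tsc2-/- library. At least 10 TPM in both kidney lines was found for 6 of the 25, beside 34.3% of all lower genes and 82.5% of all described genes.

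Il1rl1, the receptor for the alarm cytokine interleukin-33, was the most abundant receptor gene among them, with 375 TPM (371 to 379) and 3.58 scaled TPM, a ratio of 105 (86.7 to 127). It lies at 40429570 to 40465415 on the plus strand of chromosome 1 (GRCm38). Of the list of 37 cytokines, chemokines and their receptors, 17 were described, and Il1rl1 was the only lower gene, while 5 were higher. Il1rl1 passed through the Tsc2+/+ library alone, and of the 10 that passed in both libraries 0 were lower and 2 higher. Cxcl10 and Ccl5 are not on this list, since they were counted with the interferon genes. Il1rn, the antagonist of the interleukin-1 receptor, had 14.2 TPM and 257 scaled TPM. Ccl2, the most abundant chemokine of the list in the Tsc2+/+ library, had 236 TPM and 237 scaled TPM.

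Matrix genes differed in both directions. Of 31 small leucine-rich proteoglycans and matricellular proteins, 19 were described, with 5 lower and 8 higher. Of the 6 that passed in both libraries, 2 were lower and 1 higher. Spp1 (osteopontin, a secreted adhesion protein of bone and injured tissue) had 794 TPM and 22.1 scaled TPM, a ratio of 35.9 (33.0 to 39.1), and it had 1173 scaled TPM in MKOC and 1481 in TJ cells. Bgn (biglycan) had 1418 TPM and 212 scaled TPM. Postn (periostin) had 52.9 TPM and 4.15 scaled TPM. The remaining lower genes, the proteoglycans Aspn and Omd, were at or below 2.37 scaled TPM against 42.4 and 15.4 TPM. Dcn (decorin), which is built like biglycan, went the other way, with 7.08 TPM and 322 scaled TPM. The CCN family members Ctgf, Cyr61, Nov and Wisp1 were higher, with log2 fold changes between 2.33 and 5.29. Only 1 of the 8 higher genes of the list passed in both libraries, so for most of them the direction followed from the limits.

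Col6a3, a chain of the beaded filaments of collagen VI, had 80.0 TPM and 2.21 scaled TPM, a ratio of 36.2 (32.1 to 40.9), whereas the fibrillar chains Col1a1, Col1a2, Col3a1 and Col5a2 were within 4-fold. Of 17 collagen VI and fibrillar chains, 8 were described and Col6a3 was the only gene past 4-fold. It passed through the Tsc2+/+ library alone, and the 7 others passed in both. Of 28 basement membrane genes, 20 were described, with 8 higher and 1 lower. Of the 13 that passed in both libraries, 3 were higher and 0 lower, with a median of 0.57. The type IV collagen chains Col4a1 (14.9 TPM and 70.6 scaled TPM) and Col4a2 (11.7 TPM and 57.8 scaled TPM) were higher, as were the laminin chains Lama4 and Lama5. The lower gene was Itgb4, an integrin subunit that anchors epithelial cells to the basement membrane, with 22.03 TPM and 1.40 scaled TPM. Slpi, a secreted protease inhibitor, had 92.5 TPM and 1.28 scaled TPM.

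Of 26 retinoid and alcohol dehydrogenase genes, 12 were described, with 1 lower and 4 higher. These 5 each passed only through the library where they were high, and the 7 that passed in both were within 4-fold. Adh7, an alcohol dehydrogenase that can oxidize retinol, had 123 TPM and 1.04 scaled TPM, a ratio of 119 (93.8 to 151). Aldh1a1 and Aldh1a2, which make retinoic acid, had 0.0852 TPM and 0 counts in the Tsc2+/+ library against 86.8 and 26.7 scaled TPM. Of 20 genes of lipid uptake and lipoproteins, 15 were described, with 1 lower and 7 higher. The 6 that passed in both libraries were within 4-fold, with a median of 0.76. Apod, a lipid carrier of the lipocalin family, had 71.5 TPM and 0.554 scaled TPM and was the lower one. Lpl, which releases fatty acids from lipoproteins, had 1.74 TPM and 137 scaled TPM, a ratio of 78.6 (65.7 to 94.1), and Apoe had 5.76 TPM and 100 scaled TPM. Of 19 prostaglandin genes, 10 were described, with 2 lower and 2 higher. These 4 also passed through 1 library alone, and the 4 that passed in both were within 4-fold. Ptgfr, the prostaglandin F receptor, had 103 TPM and 2.08 scaled TPM, and Alox5ap, which serves leukotriene synthesis, had 17.7 TPM and 0.294 scaled TPM. Ptgis, the prostacyclin synthase, was higher, with 2.58 TPM and 38.01 scaled TPM. Cyp2c55, a cytochrome P450, had 29.5 TPM and 0.380 scaled TPM.

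Several lower genes are best known from neurons and muscle. Stmn2, a tubulin-binding protein of growing axons, had 117 TPM and 0.130 scaled TPM, a ratio of 899 (384 to 2106). The sodium channel Scn3a had 26.0 TPM and 0.0530 scaled TPM, and Chrnd, a subunit of the muscle acetylcholine receptor, had 20.1 TPM and 0.138 scaled TPM. These were the 3 lower genes of 7 described neural and neural crest markers, of which 3 others, Mbp, Uchl1 and Nsg1, were higher. Each of these 6 passed only through the library where it was high, so its direction followed from the limits, and the 1 marker that passed in both was within 4-fold. Aqp1, a water channel, had 61.3 TPM and 0.363 scaled TPM.

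The X chromosome, with 298 (3.27%) of the described genes, carried 4 of the 25 named lowest genes and 5 of the 25 named genes near 0 in Tsc2+/+ MEFs. Rhox5, a homeobox gene of the reproductive tract, had 158 TPM from 2774 counts and 0.5 counts in the Tsc2-/- library, at least 611-fold lower. A transcript without a symbol, ENSMUST00000185127, held the same TPM as Rhox5 in each library, so reads were shared between them and the level of Rhox5 alone is uncertain. Xlr had 34.8 TPM and 0.0294 scaled TPM from 1 count, a ratio of 1186 (209 to 6722). Rhox5 and Xlr were the 2 lower genes of 22 Rhox and Xlr genes, of which 3 were described and 1 was higher. Of the 3, 0 passed in both libraries, so their direction followed from the limits. Tmem47 and the protocadherin Pcdh19 were at or below 0.326 scaled TPM against 39.7 and 18.8 TPM. X-linked genes were found at the other end as well. Bex1, Bex2 and Bex4, small adaptor proteins of a neighbouring family, were at 0 counts in the Tsc2+/+ library and had 95.6, 42.0 and 40.6 scaled TPM in the Tsc2-/- library. The related Wbp5, Ngfrap1 and Tceal8 were within 4-fold and above 105 in both. The 5 described genes on the Y chromosome had at least 10 TPM in both libraries and were within 4-fold.

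Near 0 in Tsc2-/- MEFs were 15 described genes, of which only 5 remained when predicted genes, pseudogenes, ribosomal protein genes and genes resting on short transcripts or lacking the same fold on a count scale were left out. These were Rhox5, Xlr, Irx2, Alx1 and Dynap, the last with 10.5 TPM and 0.141 scaled TPM from 3 counts.

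The 118 genes near 0 in Tsc2+/+ MEFs included 62 with 0 counts and 115 annotated as protein coding. Most were of modest level in Tsc2-/- MEFs, with a median of 18.8 TPM as deposited, and 17 of them had at least 50 TPM. The gene with the highest value, Gm12338, is annotated as a processed pseudogene and is left aside. At the limit, Serping1 had 3 counts in the Tsc2+/+ library and was counted, and Wt1 had slightly over 3 and was not. Of the 118 genes, 30 (25.4%) had at least 10 TPM in both kidney lines, beside 82.5% of all described genes, 48 had at most 3 counts in both kidney lines and 40 lay between.

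Of the 25 named genes of this set, 14 had 0 counts and 11 had 1 to 3 counts in the Tsc2+/+ library. Igfbp3, which binds insulin-like growth factors, had 0 counts against 222 scaled TPM, at least 5203-fold higher. The mesothelial genes Upk3b, Gpm6a and Upk1b were at 0 counts against 118, 61.3 and 54.9 scaled TPM, and Krt19, a keratin of simple epithelia, had 1 count against 42.4 scaled TPM. Of the 15 mesothelial markers, 11 were described and 4 were not. The highest of the 15 in the Tsc2+/+ library was Podxl, with 4.98 TPM and 124 scaled TPM, and 7 of the 15 were at 0 counts there, of which Calb2 was at 0 counts in the Tsc2-/- library as well. Of the 21 epithelial markers, 5 were described, none was above 1.41 TPM in the Tsc2+/+ library, and 6 were at 0 counts there and 4 in the Tsc2-/- library. The epithelial adhesion genes Cdh1 and Epcam were at or below 0.265 in both libraries. The 11 and 5 described markers all passed through the Tsc2-/- library alone, so that their being higher followed from the limits.

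Cd24a, a small surface glycoprotein, had 1 count against 69.3 scaled TPM, and had 280 scaled TPM in MKOC and 439 in TJ cells. Vldlr, a lipoprotein receptor, had 1 count against 60.3 scaled TPM, and Rnf128, a ubiquitin ligase, had 1 count against 38.7 scaled TPM. Bcam, a receptor for laminin, had 2 counts against 27.4 scaled TPM. These 4 genes, together with Hoxb9 and Ctgf, had at least 10 TPM in both kidney lines. Under 1 scaled TPM in both were 16 of the 25, among them Igfbp3, Bex1, Rspo3, Sulf1, Cd55, Fabp3 and Aldh1a2. Folr1 (a folate receptor), Hsd17b11 (a steroid dehydrogenase of lipid droplets), Cck (the peptide hormone cholecystokinin), Itm2a and Ccser1 completed the set, at 27.3 to 39.8 scaled TPM.

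**Figure D4:**
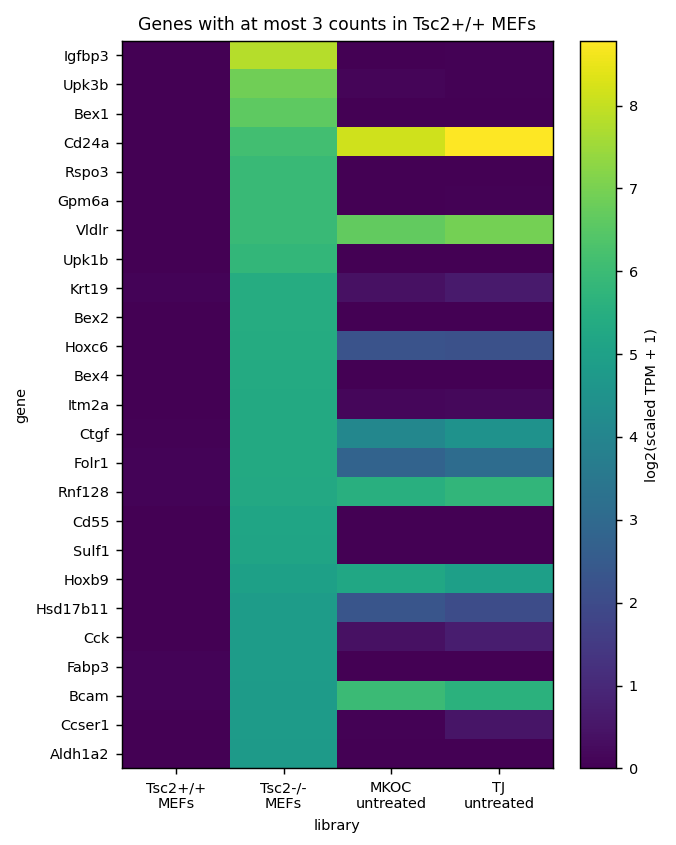
Level (colour, log2 of scaled TPM with 1 added) of the 25 named genes with at most 3 counts in the Tsc2+/+ MEF library, in rows, across the 4 untreated libraries, in columns. The first column is dark for every gene, and Cd24a, Vldlr, Rnf128, Hoxb9, Bcam and Ctgf are bright in both kidney columns.

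Secreted signalling genes added further members near 0 in Tsc2+/+ MEFs. Of 34 Wnt ligands, R-spondins and antagonists, 9 were described, 7 were higher, 1 was lower and 6 were near 0 in Tsc2+/+ MEFs. The 7 higher genes passed through the Tsc2-/- library alone. Rspo3, a secreted amplifier of Wnt signals, had 1 count against 61.6 scaled TPM, a ratio of 4282 (756 to 24262). Wnt5a had 0.648 TPM and 12.3 scaled TPM, and the antagonist Sfrp1 had 0 counts and 21.4 scaled TPM. Wnt10b was the lower gene, with 33.9 TPM and 2.39 scaled TPM. Among 26 BMP ligands and antagonists, 9 were described and 3 were higher, none of which passed in both libraries, led by the antagonist Grem1 with 0.0525 TPM and 251 scaled TPM, a ratio of 4784 (2317 to 9878). Of 34 imprinted genes, expressed from 1 parental copy, 27 were in the table used here and 14 were described, with 8 higher and 0 lower. The 8 passed through the Tsc2-/- library alone, and the 6 that passed in both were within 4-fold. Mest, 1 of the 8, had 0.428 TPM and 214 scaled TPM. IGF axis genes had 14 of 16 members described, with 6 higher and 0 lower, and of the 7 that passed in both libraries 1 was higher. Muscle markers had 4 of 14 described, with 2 higher (Des and Tagln) and 0 lower, and of the 3 that passed in both libraries 1 was higher.

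Lists tied to mTORC1 and growth had 1 to 4 genes each past 4-fold. Higher genes were 18.2% of described glycolysis genes, 15.4% of ATF4 targets, 15.0% of TSC and mTOR complex genes, 12.5% of receptor tyrosine kinases, 9.09% of p53 targets and CDK inhibitors, 7.14% of lysosome genes and 3.45% of sterol and of cell cycle genes, beside 4.94% of all described genes. Of the genes passing in both libraries, 1 of 19 glycolysis genes and 1 of 24 lysosome genes were higher, and none in the other 6 lists. Sterol and fatty acid synthesis genes had 29 of 29 members described, 1 higher, 0 lower and a median of 0.56. Glycolysis genes had 22 of 22 described, 4 higher, 0 lower and a median of 0.72. The 4 were the glucose transporter Slc2a3 (0.0432 TPM and 38.7 scaled TPM), the lactate transporter Slc16a3 (0.723 TPM and 37.8 scaled TPM), Aldoc and Eno2, while Pkm had 1014 TPM and 1090.0 scaled TPM. Targets of the stress factor ATF4 had 26 of 27 described, 4 higher, 0 lower and a median of 0.18, with Atf4 at 479 TPM and 494 scaled TPM. Lysosome genes had 28 of 31 described, 2 higher, 1 lower and a median of 0.46. Gpnmb, a membrane glycoprotein of lysosome-rich cells, was the lower one (98.3 TPM and 8.66 scaled TPM), and it had 271 scaled TPM in MKOC and 306 in TJ cells. TSC and mTOR complex genes had 20 of 21 described, with 3 higher (Prr5, Prr5l and Sesn3), 0 lower and a median of 0.27. Cell cycle genes had 29 of 29 described, with 1 higher (Ccne1), 0 lower and a median of 1.06. Targets of p53 and inhibitors of cyclin-dependent kinases had 22 of 25 described, with 2 higher, 1 lower and a median of 0.35. Receptor tyrosine kinases had 16 of 32 described, with 2 higher, Egfr (0.0353 TPM and 20.6 scaled TPM) and Epha2, and 0 lower.

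Lower genes also lay side by side. Reading described genes in order along each chromosome (GRCm38, GENCODE M21), 5 runs of at least 3 neighbours were all lower and 6 were all higher. The lower runs held 19 of the 166 lower genes and the higher runs 22 of the 451 higher genes. Most genes in the lower runs belong to lists counted above, so the runs are not a separate result. The longest held 7 genes at 173350879 to 173982744 on chromosome 1, the PYHIN cluster Aim2, Ifi204, Mndal, Gm38050, Mnda, Ifi203 and Ifi202b. Sp110, Sp140 and Sp100 formed another run on chromosome 1, Tgtp1, Tgtp2 and Ifi47 a run on chromosome 11, Parp14, Dtx3l and Parp9 a run on chromosome 16, and H2-DMb1, Tap1 and Tap2 a run on chromosome 17. The higher runs included the Hoxb cluster on chromosome 11 (6 genes, from Gm53 to Hoxb3) and Hoxc8, Hoxc6 and Hoxc4 on chromosome 15. Related genes in a cluster can share reads, so neighbours are not independent measurements.

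Whole chromosomes differed in their typical fold change. Among genes that reached 10 TPM on both sides, the median log2 fold change of the 20 chromosomes with at least 100 such genes ran from -0.45 on X (239 genes, 81.6% below 0) and -0.44 on chromosome 12 (233 genes, 80.3% below 0) to 0.38 on chromosome 15 (293 genes, 26.3% below 0) and 0.47 on chromosome 6 (351 genes, 24.5% below 0). The quartiles were -0.76 and -0.12 on chromosome 12 and 0.01 and 0.93 on chromosome 6, so their middle ranges did not overlap. Genes past 4-fold did not follow the medians throughout. Lower genes were 5.37% of described genes on X and 4.26% on chromosome 3 but 0.704% on chromosome 12, beside 1.82% overall. Higher genes were 8.52% on chromosome 6 and 6.71% on X, beside 4.94% overall. DNA copy number was not measured, and its part in these differences was not tested.

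**Figure D5:**
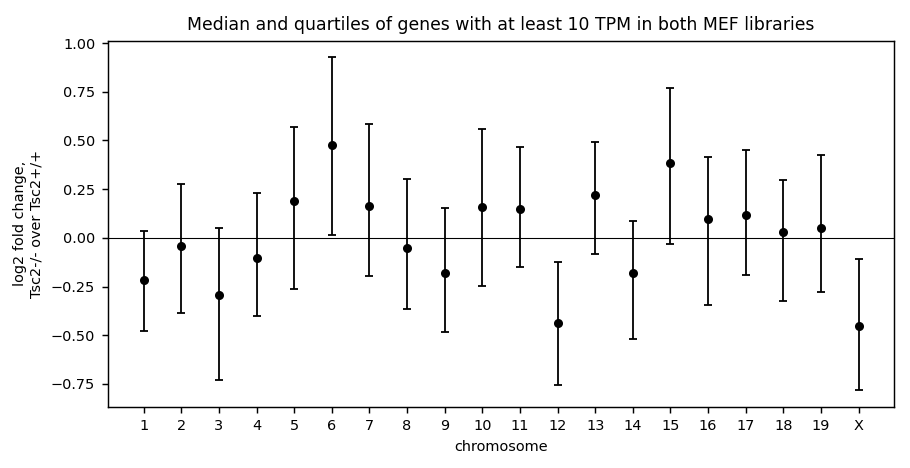
Log2 fold change of Tsc2-/- over Tsc2+/+ MEFs (vertical axis, scaled TPM with 1 added) by chromosome (horizontal axis), for genes with at least 10 TPM in both libraries. Points are medians and bars run from the lower to the upper quartile; chromosomes 12 and X lie lowest and chromosome 6 highest.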

How the data were processed

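RNA-seq was compared between 1 library of Tsc2-/- p53-/- MEFs and 1 library of Tsc2+/+ p53-/- MEFs. Estimated counts and TPM of 88198 transcripts were deposited, which the authors obtained from trimmed reads with Kallisto. Their methods name a human reference, whereas the identifiers are those of mouse Ensembl transcripts. A second deposited table holds the authors' own fold change, a ratio per transcript, which was not used. Only its gene symbols were taken, the first where a transcript had 2 (8 transcripts). The 1006 transcripts without a symbol (0.372% and 0.468% of the counts) were left out. Positions came from GENCODE M21 (86031 transcripts matched).

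TPM and estimated counts were summed per symbol and scaled to a median ratio of 1. Transcripts under 300 bases took 20.9% (Tsc2+/+) and 7.12% (Tsc2-/-) of TPM. A gene was called lower or higher at a fold of 4 on TPM with 1 added. At most 3 counts was near 0. Named genes were Tsc2 and Trp53, the 25 with the lowest log2 fold change, the 25 near 0 in Tsc2+/+ MEFs with the highest TPM, up to 10 near 0 in Tsc2-/- MEFs, and from 37 lists the members past 4-fold, up to 4 abundant others and defining members at 0. Predicted, pseudogene and ribosomal protein symbols, genes resting on transcripts under 300 bases and genes under 4-fold in scaled CPM were not named in the ranked sets. The members, lists and thresholds were chosen with earlier results of these data known. Alternatives were other scalings, filters, pseudocounts and thresholds. The code was checked on simulated counts, with both libraries drawn from the Tsc2+/+ counts and counting error only. Of 200 well-read genes given a change among 30281 genes, 199 were recovered at a limit slightly under 4-fold. No variation between lines or cultures was simulated, so the 0 unchanged genes called say nothing of how reliable the calls are. Tools were Python 3.11.15, pandas 2.3.3, scipy 1.17.1, matplotlib 3.10.9, R 4.3.3 and edgeR 4.0.16 (TMM factors only). Some lists share genes with one another. Promoters were those of RefSeq. Values of a few genes are not reported here, though counts and medians of their lists include them.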

Additional observations from a re-analysis of the deposited data

Results flagged for a closer look

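Transcripts without a gene symbol were outside the sums per gene. Of these, 2 reached the same limits and were at least 4-fold higher in the Tsc2-/- library. ENSMUST00000181012 had 2.35 TPM in the Tsc2+/+ library and 17.9 TPM, as deposited, in the Tsc2-/- library. ENSMUST00000184292 had 0 counts and 10.7 TPM. Neither is named in the files, and there was no replicate check.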

How the results depend on the processing

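No paired analysis was possible because each group had 1 library, and for the same reason no library could be left out. Without scaling, the median log2 fold change of described genes moved from 0.08 to 0.46, and 118 genes were lower and 571 higher. By edgeR TMM on estimated counts, 177 were lower and 447 higher, of which 155 and 429 were shared with the counts given above. The following counts moved by over 1.5 times. With no filter on low values, 690 genes were higher, 4272 near 0 in Tsc2+/+ and 4104 near 0 in Tsc2-/- MEFs. With a filter of 20 TPM and 200 counts, 284 were higher and 53 near 0 in Tsc2+/+ MEFs. With 5 added to TPM, 97 were lower and 210 higher. At a fold of 2, 632 were lower and 1172 higher. At a fold of 8, 72 were lower and 292 higher, and 16 genes of the 3 interferon lists were lower. With predicted, pseudogene and ribosomal symbols left out, 5 genes were near 0 in Tsc2-/- MEFs, and at a limit of 10 counts 26 were. Over the other alternatives, 26 to 52 interferon genes were lower. The sign of 3 list medians turned without scaling, to 0.28 for retinoid genes (0.032 by CPM), 0.0013 for cytokines and 0.23 for prostaglandin genes. With 5 added, the medians of described Hox genes, Wnt genes and epithelial markers fell from 3.24, 3.74 and 4.06 to 1.47, 1.82 and 2.05. No ranked gene changed sign, though Trp53 turned from -0.26 to 0.11 without scaling, and with 5 added 1 of the 26 ranked lower genes fell under 4-fold. Chromosomes X and 6 stayed lowest and highest under no scaling, CPM and 5 added. Genes under 10 TPM were not described, which limits what can be said of low regulators. Intervals cover counting error only.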
